A study of Mus musculus with 4 samples.

Results

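The liver X receptor (LXR) and cholesterol efflux genes were a named set of 10 mouse genes, chosen by symbol: the receptors Nr1h3 and Nr1h2, the efflux pumps Abca1 and Abcg1, the lipoprotein genes Apoe, Apoc2 and Pltp, the LXR targets Mylip and Lpcat3, and the lysosomal cholesterol exporter Npc1. A gene counted as measured when a probe set of the array carried its symbol and no other, which held for 8 of the 10 among 19938 genes on the array, and all 8 passed the filter on dim probe sets that left 14995 genes. No probe set was named for Nr1h2, and the probe set of Apoc2 also carried a predicted gene, so neither is described.

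The cells that the submitters call M1 came from C57BL/6J mouse bone marrow after 7 days with GM-CSF, the granulocyte-macrophage colony-stimulating factor, and the sort kept those with CD45, the Adgre1 protein and MHC class II on their surface and without CD8a. They were compared with M2 cells, C57BL/6J marrow cells grown for 7 days in M-CSF, the macrophage colony-stimulating factor, given as 20% supernatant of L929 fibroblasts, where the sort kept cells with CD45, CD11b and the Adgre1 protein. Each group had 2 arrays, 4 in all, and no genetic change, animal age, sex or number of animals is named in the labels used here. The effects of the growth factor, the fibroblast supernatant and the gate used for sorting cannot be told apart. The labels do not say whether replicates came from separate cultures or animals, and the spread within the M-CSF pair, at least, may be technical.

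LXR alpha, encoded by Nr1h3, and LXR beta, encoded by Nr1h2, are nuclear receptors that bind oxidised cholesterol derivatives (oxysterols) and the cholesterol precursor desmosterol, pair with a retinoid X receptor, and switch on genes that remove cholesterol from the cell. In macrophages the pumps encoded by Abca1 and Abcg1 pass cholesterol to lipoprotein particles outside the cell, Apoe and Pltp encode secreted proteins that carry or move lipids between those particles, and Mylip encodes a ubiquitin ligase that removes the LDL receptor. A macrophage that takes up dying cells or modified lipoproteins depends on this system to avoid turning into a lipid-laden foam cell.

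The values are log2 expression values made by the submitters with RMA (robust multi-array average), where a step of 1 is a doubling. Differences at both ends of its range are compressed by RMA, and precision is limited by the number of arrays. The 2 GM-CSF arrays lay further apart than the 2 M-CSF arrays, with 226 and 7 genes at least 2-fold apart within the pair. Xist, an RNA made from an inactive X, read 11.58 on GM-CSF replicate 1 against 4.93 on GM-CSF replicate 2 and 4.53 and 4.80 on the M-CSF arrays. Eif2s3y, a gene of the Y chromosome, read 3.66 on GM-CSF replicate 1, which is within background, against 9.10 on GM-CSF replicate 2 and 9.32 and 9.17 on the M-CSF arrays. GM-CSF replicate 1 thus had the pattern of female cells and the other arrays that of male cells, so the GM-CSF pair did not come from the same animals, and sex cannot be told apart from any other difference between those arrays. Csf1r, Adgre1, Itgam, Cd68, Lyz2, Mertk and Fcgr1, the macrophage markers, all read above background on the 4 arrays (background being the 95th percentile of olfactory receptor genes, a mean of 5.90 over the arrays). None of these 7 passed limma's adjusted p (1 had an unadjusted p under 0.05).

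Some marker genes of other cell types moved with the groups. Of 8 dendritic cell markers, 4 differences were positive and 4 negative. Itgax, Clec9a and Ccr7 rose in GM-CSF cells, Zbtb46 (0.25) and Batf3 (-0.15) did not pass, and Flt3, Xcr1 and Siglech stayed within background on all 4 arrays. The summed linear level of the list was 2392 and 1714 on the GM-CSF arrays against 508 and 529 on the M-CSF arrays. Itgax weighed most in the GM-CSF sums, at 10.72 and 10.05 against 6.01 and 5.71 on the log2 scale. The summed neutrophil markers read 1378 on GM-CSF replicate 1, 623 on GM-CSF replicate 2, and 853 and 738 on the M-CSF arrays. Of the 8 tested, Mpo fell, at levels near background (5.65 and 5.68 against 6.31 and 6.30), and the rest did not pass. Dcn of the fibroblast list rose, Cd4 and Cd79b of the T and B cell lists fell, and Cd3d, Cd3g, Cd79a and Ms4a1 lay within background on all arrays. The part of other cells in the results below was not tested, and in bulk samples fewer cells of a type and less RNA per cell cannot be told apart.

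The measured genes showed no common direction between the groups. Abcg1 and Lpcat3 were higher in GM-CSF cells, by 1.66-fold and 1.45-fold, and Apoe was 2.17-fold lower. Abca1, Npc1, Mylip, Nr1h3 and Pltp did not pass the test, and the values of Nr1h3 and Pltp depended on which GM-CSF array was read. In total 3 of the 8 measured genes passed limma with an adjusted p under 0.05, 2 higher and 1 lower, where 10.7% of all genes tested passed, 6.18% higher and 4.53% lower. The median difference was -0.03 over the 8 genes and -0.01 over all genes tested, and 4 of the 8 differences were positive and 4 negative. In 5 of the 8 genes both arrays of a group lay above both of the other, as in 55.4% of all genes tested.

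**Figure D1:**
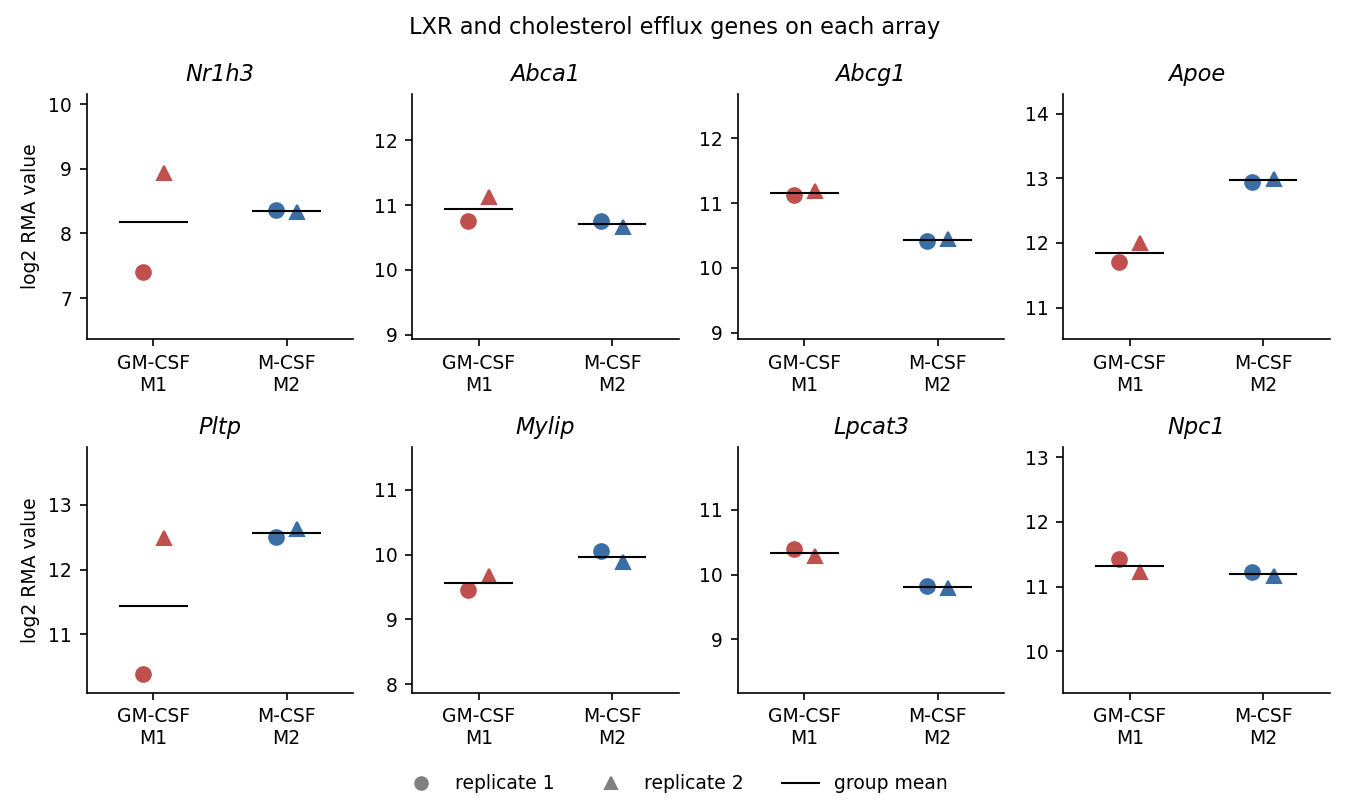
Log2 RMA value (vertical axis, the same span in each panel) of the 8 measured genes on each array, with GM-CSF M1 in red left of M-CSF M2 in blue, circles for replicate 1, triangles for replicate 2 and a line at the group mean of 2 arrays. Abcg1 and Lpcat3 lie higher and Apoe lower on both GM-CSF arrays, while the GM-CSF arrays of Nr1h3 (7.41 and 8.94) and Pltp (10.38 and 12.48) lie far apart.

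Nr1h3, the receptor that macrophages themselves induce under LXR activation in humans, read 7.41 and 8.94 on the GM-CSF arrays and 8.37 and 8.33 on the M-CSF arrays. One GM-CSF array thus lay below both M-CSF arrays and the other above them. The difference was -0.18 ± 0.45 (SE, n = 2 per group) on the log2 scale, with a 95% interval from -1.27 to 0.91 (limma, adjusted p = 0.865). The gap of 1.53 between its GM-CSF arrays was exceeded by 0.547% of all genes tested. Without GM-CSF replicate 1 the difference was 0.59 (limma, adjusted p = 0.00566), and without GM-CSF replicate 2 it was -0.94 (limma, adjusted p = 7.64e-05), so that it passed in both fits, in opposite directions. GM-CSF replicate 1, with the female pattern, gave the lower value, and the part of sex in this was not tested. The spread in those fits comes from the M-CSF pair, whose arrays are closer, and 17.6% and 21.4% of all genes passed in them. Over the 4 arrays, the genes with the profile most like that of Nr1h3 were Cd72, Bcl6, Tagap, Ifit2 and Ms4a4a, at root mean square distances of 0.0176, 0.0519, 0.0857, 0.107 and 0.117 on the centred log2 scale, among 13941 genes compared. Cd72, a B cell and macrophage surface lectin, read 11.31 and 12.82 on the GM-CSF arrays and 12.30 and 12.25 on the M-CSF arrays. All of these genes read lower on GM-CSF replicate 1 than on GM-CSF replicate 2. The likeness thus rests largely on the gap between those arrays and carries little.

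Abca1 is the classic target through which LXR acts on a promoter, and its sequence is shown because a match to the LXR binding element lies within it. LXR with its partner binds a DR4 element, the half-site AGGTCA repeated after a spacer of 4 bases (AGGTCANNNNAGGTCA). RefSeq promoter windows (GRCm38.p6, from 250 bases before to 50 after a transcript start) were found for 8 of the 10 genes, as 11 windows. Abcg1 and Npc1 had no window, and sequence outside the windows was not searched for any gene. On either strand, allowing 3 mismatches among the 12 half-site letters, a DR4 match lay in 1 of the 11 windows, that of Abca1, and in 21.9% of all 32851 windows. The exact half-site lay in 1 of the 11 windows, that of Apoc2, and in 16.3% of all windows. Of the windows of Srebf1, which encodes the lipid synthesis regulator SREBP1 and is itself an LXR target, only 1 held a match. That match shares 14 of 16 letters with that of Abca1. The shared letters, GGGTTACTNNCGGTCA, were then searched on both strands of all 32851 windows and found in 3, those of Abca1, Srebf1 and Fasn, the gene of fatty acid synthase and another known LXR target. This motif was taken from the first pair of windows, so only the Fasn match is additional, and a match is a description, not a shown binding site. On the strand that reads as the direct repeat the matches are as follows, in capitals over their whole length.
Abca1: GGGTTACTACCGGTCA
Srebf1: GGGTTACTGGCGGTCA
Fasn: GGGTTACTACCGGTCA
The Abca1 and Fasn matches are the same in every letter. The windows themselves follow, 5′ to 3′ on the gene's strand (minus for all 3 genes), with the match in capitals as its reverse complement: Abca1 at chr4:53159846-53160145, Srebf1 at chr11:60210422-60210721 and Fasn at chr11:120824498-120824797.
Abca1: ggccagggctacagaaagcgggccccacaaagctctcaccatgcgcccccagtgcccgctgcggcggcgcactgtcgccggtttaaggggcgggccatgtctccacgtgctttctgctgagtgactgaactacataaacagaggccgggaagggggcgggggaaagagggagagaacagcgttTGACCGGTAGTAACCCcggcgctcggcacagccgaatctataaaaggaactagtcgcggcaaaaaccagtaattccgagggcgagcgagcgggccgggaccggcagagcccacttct
Srebf1: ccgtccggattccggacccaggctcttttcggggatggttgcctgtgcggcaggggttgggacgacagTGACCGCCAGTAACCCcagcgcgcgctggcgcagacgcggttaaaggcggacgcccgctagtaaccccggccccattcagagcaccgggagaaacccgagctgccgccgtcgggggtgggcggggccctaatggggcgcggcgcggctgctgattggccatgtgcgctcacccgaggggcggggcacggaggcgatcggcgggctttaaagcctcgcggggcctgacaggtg
Fasn: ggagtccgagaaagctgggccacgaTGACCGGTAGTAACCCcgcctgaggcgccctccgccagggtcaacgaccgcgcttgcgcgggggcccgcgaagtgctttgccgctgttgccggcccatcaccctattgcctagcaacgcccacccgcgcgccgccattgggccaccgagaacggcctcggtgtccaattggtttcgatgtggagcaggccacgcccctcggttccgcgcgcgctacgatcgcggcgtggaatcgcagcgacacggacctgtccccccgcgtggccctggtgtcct
The match runs from -67 to -52 relative to the Abca1 start, from -182 to -167 for Srebf1 and from -225 to -210 for Fasn.

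None of the 3 genes with this element passed limma (0 of 3 had an unadjusted p under 0.05). Of all 14995 genes tested, 10.7% passed and 3821 had an unadjusted p under 0.05, so a count over 3 genes carries little. Abca1 read 10.75 and 11.13 on the GM-CSF arrays and 10.76 and 10.66 on the M-CSF arrays. GM-CSF replicate 2 was the highest of the 4, and GM-CSF replicate 1 fell between the M-CSF arrays. Its difference was 0.23 ± 0.15 (SE, n = 2 per group; 95% interval from -0.13 to 0.59; limma, adjusted p = 0.414), so that the interval ran from 0.912-fold to 1.51-fold of the M-CSF level. Without GM-CSF replicate 1 the Abca1 difference was 0.41 (limma, adjusted p = 0.0474) and without GM-CSF replicate 2 it was 0.04 (0.882). Srebf1 read 7.95 and 8.32 on the GM-CSF arrays against 7.96 and 7.94 on the M-CSF arrays (0.19 ± 0.15, limma adjusted p = 0.508), with GM-CSF replicate 2 again the highest. The probe set of Srebf1 does not say which transcript start was used. Fasn read 8.29 and 8.12 on the GM-CSF arrays and 8.03 and 8.13 on the M-CSF arrays (0.13 ± 0.12, limma adjusted p = 0.571), with overlapping groups. Extl3, Azi2, Abcc1, Cbr3 and Slc15a2 had the profiles most like that of Abca1, at root mean square distances from 0.0114 to 0.0192. Small distances are common for a gene whose arrays differ little, so this likeness over 4 arrays carries little.

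Abcg1, the other pump, which loads cholesterol onto particles already carrying lipid, rose in GM-CSF cells. It read 11.13 and 11.19 there, against 10.42 and 10.44 in M-CSF cells. The arrays of each group nearly coincided and the groups did not overlap. The difference was 0.73 ± 0.10 (SE, n = 2 per group; 95% interval from 0.48 to 0.98; limma, adjusted p = 0.00888), or 1.66-fold, and 7.98% of all genes tested differed by more. The log2 ratio of Abcg1 to Abca1 within an array, which no scaling of whole arrays can move, was 0.37 and 0.07 on the GM-CSF arrays against -0.34 and -0.22 on the M-CSF arrays. On this within-array scale the change between groups was 0.50, with no overlap of arrays, and was not tested because the pair was picked after their values were seen.

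Apoe, which encodes the apolipoprotein that macrophages secrete as an acceptor for effluxed cholesterol, fell in GM-CSF cells. It read 11.70 and 12.00 on the GM-CSF arrays and 12.95 and 12.99 on the M-CSF arrays. All GM-CSF values lay below all M-CSF values, and the M-CSF arrays differed from each other by only 0.03. The difference was -1.12 ± 0.13 (SE, n = 2 per group; 95% interval from -1.44 to -0.80; limma, adjusted p = 0.00474), or 2.17-fold lower, with an interval from 1.74-fold to 2.72-fold lower, and 3.94% of all genes tested differed by more. It was -0.97 without GM-CSF replicate 1, where leaving out replicate 2 gave -1.27. Apoe and Abcg1 thus moved in opposite directions. Their log2 ratio, Abcg1 minus Apoe, was -0.57 and -0.80 on the GM-CSF arrays against -2.54 and -2.54 on the M-CSF arrays. This ratio restates the differences of the 2 genes and was not tested.

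Pltp, which encodes the phospholipid transfer protein that remodels high-density lipoproteins, read 10.38 and 12.48 on the GM-CSF arrays and 12.50 and 12.63 on the M-CSF arrays. GM-CSF replicate 2 lay just below both M-CSF arrays, and GM-CSF replicate 1 far below them. The difference was -1.14 ± 0.61 (SE, n = 2 per group; 95% interval from -2.62 to 0.35; limma, adjusted p = 0.316). Its mean difference was close to that of Apoe, but the gap of 2.11 between its GM-CSF arrays was exceeded by only 0.233% of all genes tested. Without GM-CSF replicate 1 the Pltp difference was -0.08 (limma, adjusted p = 0.772), against -2.19 without GM-CSF replicate 2 (7.44e-09). GM-CSF replicate 1 was the array where Nr1h3 and Pltp were low. Of the 8 neutrophil markers tested, 5 read higher there than on GM-CSF replicate 2, and Mpo, Elane and Camp read lower, by 0.18 or less. The widest gaps were those of Ngp and S100a8. Ngp read 9.02 there against 7.02 on GM-CSF replicate 2 and 8.40 and 7.83 on the M-CSF arrays. S100a8 read 8.54 against 7.04 and then 6.96 and 6.84. The part of neutrophil genes was not tested.

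**Figure D2:**
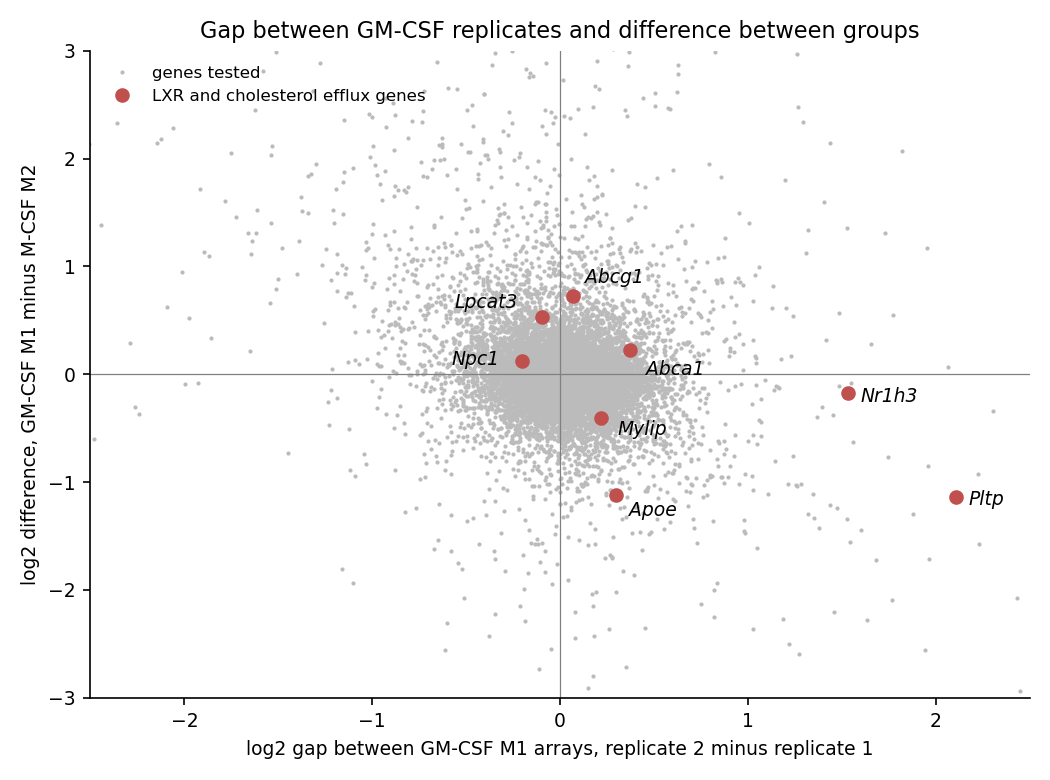
Difference between groups (vertical axis, log2, GM-CSF M1 minus M-CSF M2) against the gap between the GM-CSF arrays (horizontal axis, log2, replicate 2 minus replicate 1) for the genes tested in grey and the 8 measured genes in red; 92 genes lie outside the axes. Pltp and Nr1h3 lie far to the right, with gaps of 2.11 and 1.53, while Abcg1, Lpcat3 and Apoe have gaps of 0.07, -0.10 and 0.30.

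Lpcat3, the enzyme that builds polyunsaturated chains into membrane phospholipids under LXR control, rose in GM-CSF cells. It read 10.39 and 10.29 in GM-CSF cells, against 9.83 and 9.79 in M-CSF cells. The groups did not overlap, and the gaps within each pair were 0.10 or less. Its difference was 0.53 ± 0.11 (SE, n = 2 per group; 95% interval from 0.28 to 0.79; limma, adjusted p = 0.0282), or 1.45-fold. Mylip, whose product degrades the LDL receptor, read 9.46 and 9.67 on the GM-CSF arrays and 10.05 and 9.89 on the M-CSF arrays. Both GM-CSF values lay below both M-CSF values, yet the difference of -0.41 ± 0.13 (SE, n = 2 per group; 95% interval from -0.72 to -0.10) had an unadjusted limma p of 0.0177 and an adjusted p of 0.104. Mylip passed without GM-CSF replicate 2 (-0.52; limma, adjusted p = 0.0139) but not without GM-CSF replicate 1 (-0.30; 0.175), M-CSF replicate 1 (-0.33; 0.480) or M-CSF replicate 2 (-0.49; 0.296).

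Npc1 encodes the membrane protein that releases cholesterol from lysosomes. It read 11.42 and 11.22 on the GM-CSF arrays and 11.23 and 11.17 on the M-CSF arrays, so that the groups overlapped. The difference was 0.12 ± 0.12 (SE, n = 2 per group; limma, adjusted p = 0.600), with a 95% interval from -0.16 to 0.41, that is from 0.893-fold to 1.33-fold of the M-CSF level. Of the intervals of the measured genes that include 0, this was the narrowest, and the difference was 0.02 or 0.22 with GM-CSF replicate 1 or 2 left out.

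**Figure D3:**
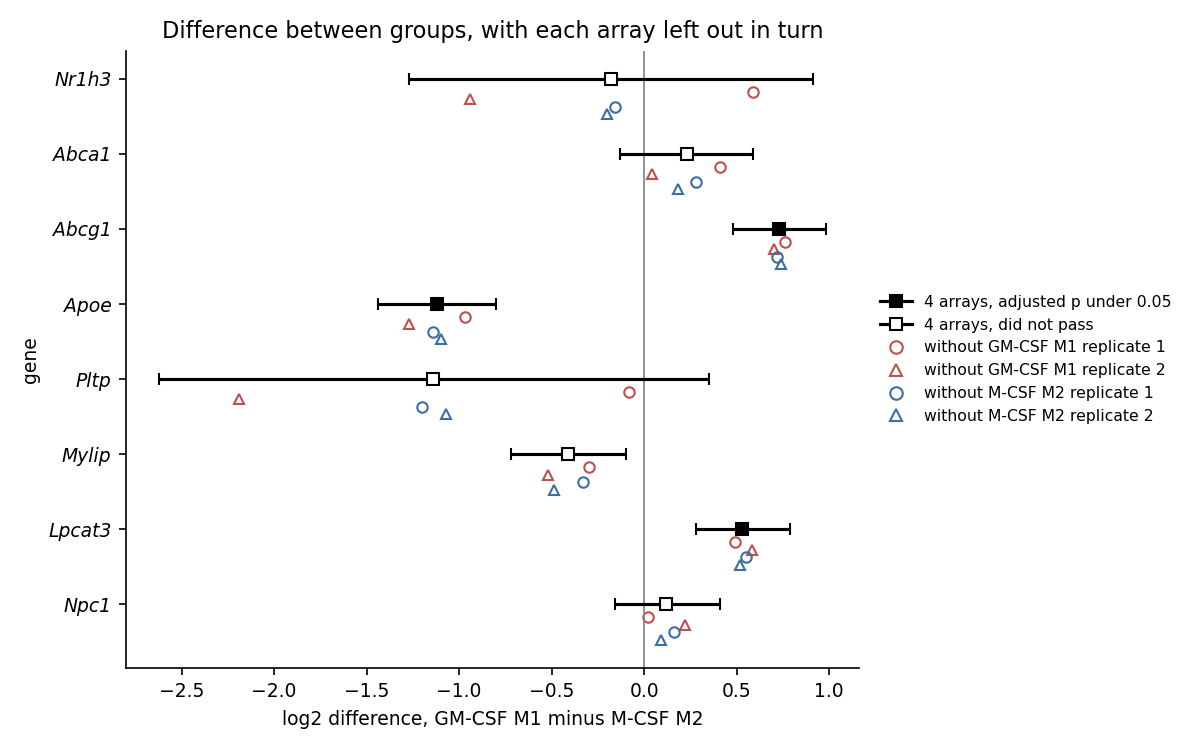
Log2 difference, GM-CSF M1 minus M-CSF M2 (horizontal axis), of the 8 measured genes, as squares with 95% intervals from limma on 4 arrays (filled where the adjusted p was under 0.05) and as open red and blue symbols in the fits that leave out 1 array. The symbols of Abcg1 (0.70 to 0.76) and Lpcat3 (0.49 to 0.58) stay together, while those of Nr1h3 run from -0.94 to 0.59 and those of Pltp from -2.19 to -0.08.

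Calls of Abcg1, Apoe and Lpcat3 rested on having both M-CSF arrays. Without M-CSF replicates 1 and 2 in turn, their differences stayed between 0.72 and 0.74 for Abcg1, -1.14 and -1.10 for Apoe and 0.52 and 0.55 for Lpcat3, with limma adjusted p of 0.134 and 0.129, 0.0974 and 0.103, and 0.216 and 0.238. In those fits 0 of the 8 genes passed (3 and 4 had an unadjusted p under 0.05 in limma), beside 1.74% and 1.55% of all genes tested.

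The wider LXR pathway was described by 5 lists with 64 genes, of which 54 were tested. In total 11 passed (6 higher in GM-CSF cells and 5 lower), or 20.4%, beside the 10.7% of all genes. The lists were chosen with earlier results of these data known, so these shares are a description and no test of the pathway. More of these 54 genes passed with a GM-CSF array left out and fewer with an M-CSF array left out. The same held for all genes tested. Of the 8 tested partners and coregulators of LXR, 0 passed limma and 3 had an unadjusted p under 0.05. Rxra, which encodes the main partner of LXR in macrophages, differed by -0.18 ± 0.11 and Rxrb by -0.06 ± 0.13 (SE, n = 2 per group), and Rxrg did not pass the filter. The widest differences in this list were those of Tbl1x (-0.49) and Tbl1xr1 (0.37), paralogous subunits of the corepressor complex, with limma adjusted p of 0.186 and 0.0984.

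Of the 12 other LXR targets tested, 4 passed, 2 in each direction (33.3%, beside 10.7% of all genes tested). The median difference of the 12 was 0.18, against -0.01 over all genes tested. Scd1, stearoyl-CoA desaturase, which makes monounsaturated fatty acids, read 8.83 and 9.16 on the GM-CSF arrays against 5.57 and 5.66 on the M-CSF arrays. The M-CSF values lay within background, so its 10.4-fold rise (3.38 ± 0.14 SE, n = 2 per group; limma, adjusted p = 0.000153) depends on that background. Scd2, a close paralog, read 11.70 and 11.74 against 11.26 and 11.42 and did not pass (0.38 ± 0.11; limma, adjusted p = 0.0872). Lpl, lipoprotein lipase, was 2.71-fold higher (11.83 and 11.97 against 10.55 and 10.37; limma, adjusted p = 0.0013). Smpdl3a, a secreted phosphodiesterase, was 1.73-fold lower (11.09 and 11.57 against 12.18 and 12.07; limma, adjusted p = 0.039), but not with no filter (0.0514), after quantile normalization (0.0666) or without M-CSF replicate 1 (0.303) or 2 (0.245). Cd5l, a scavenger receptor family protein that LXR induces in mouse macrophages, read 6.19 and 5.93 on the GM-CSF arrays, close to background, against 11.42 and 11.37 on the M-CSF arrays (-5.34 ± 0.13; limma, adjusted p = 3.94e-05).

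Uptake, storage and transport genes were split as well: of 14 tested, 2 rose (Msr1 and Tspo) and 3 fell (Vldlr, Gramd1a and Gramd1b). These 5 were 35.7% of the list, beside 10.7% of all genes tested. Msr1, a scavenger receptor for modified lipoproteins, read 11.88 and 12.02 on the GM-CSF arrays against 10.95 and 10.59 on the M-CSF arrays (2.27-fold higher; limma, adjusted p = 0.00613). Gramd1a and Gramd1b encode carriers that bring plasma membrane cholesterol to the endoplasmic reticulum, and both were lower in GM-CSF cells, by 1.87-fold and 1.59-fold (limma, adjusted p = 0.0361 and 0.0121). Tspo, an outer mitochondrial membrane protein, was 1.98-fold higher. Vldlr, a lipoprotein receptor, differed by -0.92 at levels near background (5.31 and 5.21 against 6.39 and 5.96). Lipa, which frees cholesterol from its esters in the lysosome, differed by 0.03 ± 0.11, and Nceh1, which does so outside the lysosome, by -0.07 ± 0.12, and neither passed. Without M-CSF replicate 2 all 5 calls of this list were lost (limma, adjusted p from 0.0623 to 0.267), and without M-CSF replicate 1 all but that of Msr1 (from 0.103 to 0.263).

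Of the 6 tested enzymes that make or remove oxysterols, 1 passed, Ch25h (16.7%, beside 10.7% of all genes tested). Ch25h, cholesterol 25-hydroxylase, read 8.21 and 7.33 on the GM-CSF arrays against 5.26 and 5.46 on the M-CSF arrays and makes an oxysterol that can act on LXR. The M-CSF values lay within background, so its 5.29-fold rise (2.40 ± 0.28 SE, n = 2 per group; limma, adjusted p = 0.00432) depends on that background. The call was lost without M-CSF replicate 1 (0.102) or 2 (0.0878). Cyp27a1, which makes another such oxysterol, differed by 0.14 ± 0.13 and did not pass, and Hsd3b7, which inactivates oxysterols on the way to bile acids, by 0.30 (0.155). SREBP2 is the regulator of cholesterol synthesis that acts when sterols are low. In its list of 14 tested genes, 11 differences were positive and 3 negative, with a median of 0.27 against -0.01 over all genes tested. An unadjusted limma p under 0.05 was found for 8 of the 14, as for 3821 of all 14995 genes tested. Of the 14 tested genes of this list, 1 passed (7.14%, beside 10.7% of all genes tested). It was Mvd, an enzyme of the mevalonate pathway, 1.97-fold higher in GM-CSF cells (8.20 and 7.99 against 7.06 and 7.18; limma, adjusted p = 0.00596). Its adjusted p was 0.111 or 0.0936 in limma with M-CSF replicate 1 or 2 left out. The widest difference after it was that of Sqle, squalene epoxidase (0.75; limma, adjusted p = 0.0582), and Srebf2 itself differed by 0.26 ± 0.11 (0.195).

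**Figure D4:**
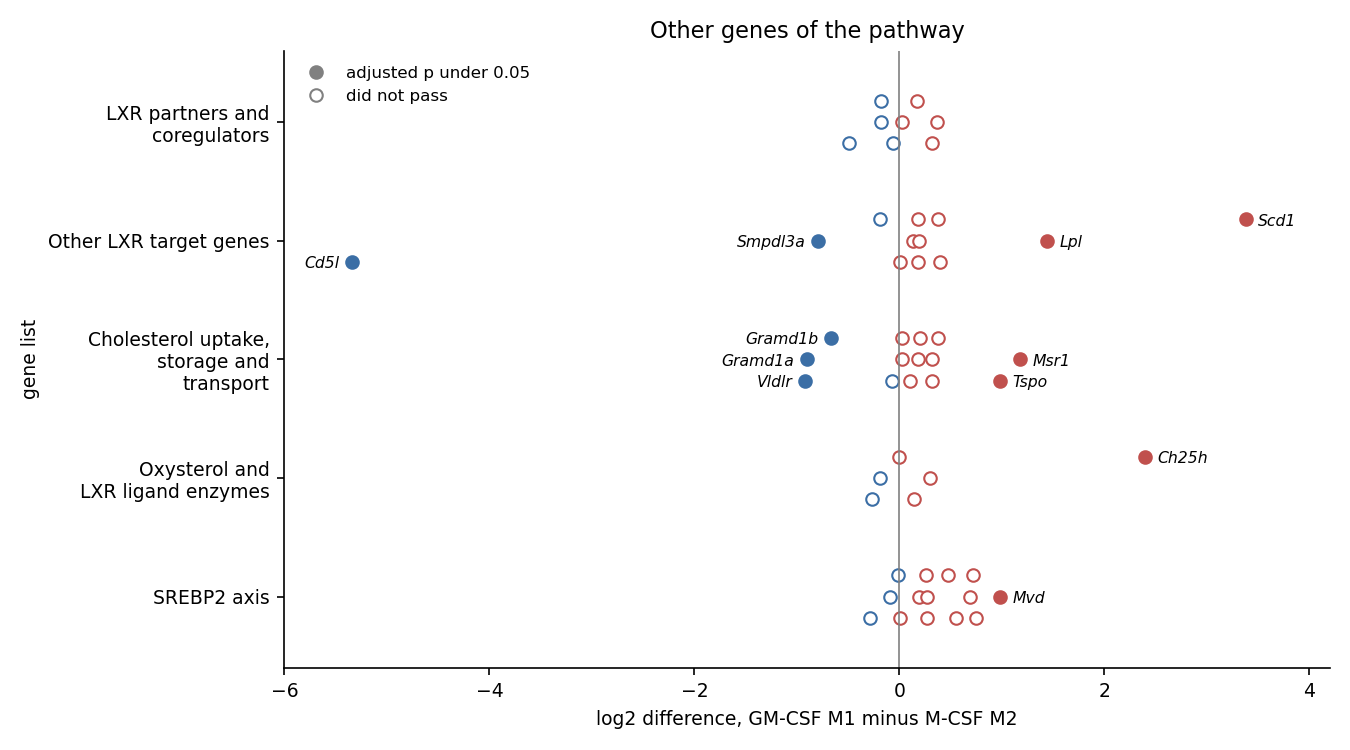
Log2 difference, GM-CSF M1 minus M-CSF M2 (horizontal axis), of the tested genes of the 5 pathway lists, a circle per gene, red above 0 and blue below, filled where the limma adjusted p was under 0.05 and offset vertically for legibility. Of 54 genes 11 are filled, among them Scd1 (3.38) and Ch25h (2.40) on the right and Cd5l (-5.34) on the left.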

How the data were processed

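Biotin-labelled cDNA made from 300 ng of total RNA by random priming was read, per the labels' protocols, on Affymetrix arrays of 1 colour. The submitters' processing notes name RMA and Affymetrix Expression Console 1.1, and the deposited file holds log2 values, a row for each probe set. RMA brings the arrays to a like distribution (medians over probe sets from 6.184 to 6.227), so a change in the total RNA of a cell is not visible. The RMA level and genome build are not given in the sources used here, and scan dates were not used.

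Gene names came from the platform's annotation (21789 of 35556 probe sets had exactly 1 symbol), and of several probe sets of a gene the one brightest on average was used. A gene was tested if 2 or more arrays exceeded their own 30th percentile (14995 genes). The test was two-sided, with limma 3.58.1 under R 4.3.3 (lmFit, then eBayes, with 4.17 prior and 2 residual degrees of freedom), adjusted by Benjamini-Hochberg over all 14995 genes with a threshold of 0.05. Differences are GM-CSF M1 minus M-CSF M2, and a fold is a power of that difference. The fit was tested on simulated data, with 50 genes changed at each size. It recovered 0% of log2 changes of 0.5, 54% of those of 1, 94% of 2 and 98% of 3. Far fewer genes changed there than passed in these data, so these shares do not carry over directly. Tables and plots were made in Python 3.11.15 (pandas 2.3.3, matplotlib 3.10.9).

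The members, gene lists and tests were chosen with earlier results of these data known. The rule for names took all members, every list gene past the threshold and the widest differences of each list. Rxra, Rxrb, Rxrg, Scd2, Lipa, Nceh1, Cyp27a1 and Srebf2 were named after their values were seen, as were Xist, Eif2s3y and the single marker genes, and Fasn and Srebf1 for their promoters. Arrays were also fitted with a replicate block. Same-numbered arrays did not deviate together (r = 0.065 across genes for deviations from the group means), and no label says that they were paired. Promoter sequences are from RefSeq (GRCm38.p6), matched by symbol.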

Additional observations from a re-analysis of the deposited data

How the results depend on the processing

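Over 9 other settings with all 4 arrays (2 other filters, quantile normalization, medians of all probe sets or of the genes tested set equal, probe sets averaged, array weights per group, variances modelled as trended and robust, and a replicate block), all 72 values of the 8 measured genes kept their direction and their side of the threshold. Centring over the genes tested was added after seeing the data. Under it 841 genes were higher and 865 lower, against 926 and 679 (a share higher of 49.3% against 57.7%). The replicate block left 3 members called (limma, 1640 genes in all) and changed no call of a member, while pathway genes called came to 14 (9 higher and 5 lower), against 11 (6 and 5). Leaving out each array in turn gave 233 to 3205 called genes, 0 to 6 called members and 3 to 20 called pathway genes, against 1605, 3 and 11. Of the members 1 reversed, Nr1h3, at 0.59 without GM-CSF replicate 1, where leaving out replicate 2 gave -0.94, and the cause was not tested. With 1 array left, a group is taken to vary as the other does, on 1 residual degree of freedom. Scd1, Lpl and Cd5l kept their calls in every setting run, while Smpdl3a, Vldlr, Gramd1a, Gramd1b, Tspo, Ch25h and Mvd lost them without either M-CSF array, and Msr1 without M-CSF replicate 2. With 2 arrays a group, differences as small as that of Mylip (-0.41) may fail the test at this spread.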

Other observations

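Most genes of the SREBP2 list lay higher on the replicates numbered 1. Of 14 tested, 13 read higher on GM-CSF replicate 1 than on GM-CSF replicate 2, as did 6591 of all 14995 genes, and 11 read higher on M-CSF replicate 1 than on M-CSF replicate 2, as did 8639. Cyp51, lanosterol demethylase, read 7.74 and 7.24 on the GM-CSF arrays and 7.11 and 6.48 on the M-CSF arrays. Idi1, isopentenyl diphosphate isomerase, read 7.92 and 7.19 on the GM-CSF arrays and 7.24 and 6.78 on the M-CSF arrays. These genes were chosen after their values were seen, and replicate numbers carry no stated meaning.

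Promoter windows with a DR4 match at up to 3 mismatches were found for 2581 of the 11858 tested genes that had a window. Of these 11.1% passed the test between GM-CSF and M-CSF cells, beside 10.6% of the tested genes whose windows held no such match. No test was made of this difference.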
